A study of Mus musculus with 9 samples.

Results

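Guidance genes encode the secreted and membrane-bound cues that steer migrating cells and growing axons, together with their receptors. Members were all protein-coding genes of the deposited count table whose names belong to the guidance families. These are the semaphorin (Sema3 to Sema7), plexin, neuropilin, ephrin, Eph receptor, Slit, Robo, netrin and Unc5 families, matched by name. This name rule, like the gene lists used below, was chosen with earlier results of these data known. The rule found 63 genes of the 27370 in the table: 19 semaphorins, 9 plexins, 2 neuropilins, 8 ephrins, 12 Eph receptors, 3 Slits, 4 Robos, 3 netrins and 3 Unc5 receptors. They were followed in stromal cells sorted from mice that all carried the alleles Wt1CreERT2, RosatdTomato and CD64DTR. In these mice a drug-inducible Cre under Wt1 control switches on the red protein tdTomato, and the diphtheria toxin receptor is placed under the control of CD64, a gene of macrophages and related myeloid cells. The mice were 4 months old, CD45-negative cells were enriched before sorting, and each library pooled cells of 2 mice. Per the labels, 6 untreated mice gave both lymph nodes and spleens.

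The group called FRC steady holds 3 libraries of tdTomato-negative fibroblastic reticular cells from the lymph nodes of untreated mice. RPF steady holds 3 libraries of tdTomato-positive red pulp fibroblasts from the spleens of untreated mice, and RPF depleted holds 3 libraries of the same sort after diphtheria toxin. All groups carried the toxin receptor, and no group of toxin-treated mice without the receptor is among these samples, so toxin and loss of CD64-expressing cells cannot be told apart. FRC and RPF differ in organ and in tdTomato gate together, and these also cannot be told apart. In sorted bulk samples, fewer cells of a type and less RNA per cell cannot be told apart either. The p-values measure the spread between libraries of pooled mice.

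Semaphorins bind plexins, whose inner domain acts on small GTPases of the Ras and Rap families. Secreted class 3 semaphorins mostly need neuropilins as co-receptors, and neuropilins also bind vascular endothelial growth factors. Ephrins are held in the membrane of one cell and bind Eph receptor tyrosine kinases on its neighbour, so that both cells can receive a signal. Slits are large secreted proteins that bind Robo receptors, and netrins bind Dcc, neogenin and Unc5 receptors. Outside the nervous system the same families shape vessels, cell boundaries and the traffic of immune cells.

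Library totals ran from 25414645 to 43879806 counts, and the members took between 0.281% and 0.415% of them. Markers of red pulp stroma (Wt1, Tcf21 and Coch among them) were higher in RPF steady than in FRC for 6 of 6 genes, and 5 of 6 lymph node stroma markers were lower. After toxin, 2 of the 6 red pulp stroma markers were called lower and 0 higher. The red pulp stroma sum averaged 30852 CPM in RPF steady and 19068 CPM in RPF depleted. Among 12 fibroblast markers, 8 were lower and 2 higher in RPF steady than in FRC, and 5 were lower and 1 higher after toxin. Pdpn, which encodes gp38, was at 74.1, 0.0981 and 0.0733 CPM (counts scaled to library size and TMM factors) in FRC, RPF steady and RPF depleted. Macrophage markers summed to 268 to 302 CPM in RPF steady and 80.6 to 115 CPM in RPF depleted, with C1qa, Cd5l, Adgre1 and Fcgr1 at 0 counts in all depleted libraries. Of 12 macrophage markers tested, 9 were called lower after toxin and 0 higher. Mertk, the most abundant of them, averaged 84.0 CPM in RPF steady and 89.3 CPM in RPF depleted, most of the depleted sum. Mural cell markers summed to 1437 to 1752 CPM in RPF steady and 4267 to 6563 CPM in RPF depleted. Of these 10 genes, 4 were called higher and 2 lower after toxin, with a median log2 fold change of 0.06. Acta2 and Des, the most abundant, averaged 255 and 771 CPM in RPF steady and 3536 and 1657 CPM in RPF depleted. The library FRC steady 1 had 0 reads of Y-linked genes and RPF steady 1 had 1, against 2285 to 6101 in the others.

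Of the 63 members, 53 had enough counts to be tested. The 10 left out were Sema7a, Plxnb3, Efna3, Epha8, Epha10, Slit1, Robo3, Robo4 and Ntn5, each with a mean of at most 1.67 CPM in every group, and Sema3e, with 0 counts in all 9 libraries. Members with a mean of at least 10 CPM numbered 35 in FRC, 28 in RPF steady and 25 in RPF depleted. Of the tested members, 29 passed the threshold (edgeR adjusted p under 0.05) in at least one comparison and 24 in neither. The comparisons below share the RPF steady libraries, so each is given on its own.

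The toxin comparison asks how red pulp fibroblasts of toxin-treated mice differ from those of untreated mice. Among the 25 receptors tested, Plxna4, Plxnb1, Plxnc1, Nrp1, Epha4, Ephb3, Ephb4 and Robo2 were called lower and Nrp2 alone was called higher. Among the 28 ligands tested, Sema3g, Sema4c and Sema6d were called higher and Sema4b, Sema5a and Efnb2 lower. The calls were 36% of the receptors and 21.4% of the ligands, the latter near the 21% of all genes. In all, 4 of 53 members were called higher and 11 lower, which is 28.3% called against 21% of all 15103 genes tested. By direction, 11.1% of all genes were called higher and 9.96% lower. The median log2 fold change of the 53 members was -0.71 and that of all genes -0.09. Of the 15 calls, 8 held in all 15 alternative analyses, and without 1 library in turn the count ran from 2 to 3 higher and from 7 to 11 lower. The lowest counts came without RPF steady 1 or RPF steady 2, which left 2 higher each, and without RPF steady 2, which left 7 lower.

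The tissue comparison asks how splenic red pulp fibroblasts differ from lymph node fibroblastic reticular cells at rest. Red pulp fibroblasts had more Sema5a, Sema3g, Plxna4, Plxnb1, Epha2, Ephb4, Robo2 and Unc5a, and less Sema3b, Nrp1, Nrp2, Plxna2, Epha4, Slit3 and Unc5c. In all, 13 of 53 members were called higher and 12 lower in RPF steady, or 47.2%, against 25.9% of all genes. By direction, 11.5% of all genes were called higher and 14.4% lower, a balance that turned with upper quartile scaling. The median log2 fold change of members was -0.43 and that of all genes -0.02. Of the 25 calls, 17 held in every alternative that gave an adjusted p (14 for Sema3b and 15 for each of the others), and leaving out 1 library gave 10 to 12 higher and 8 to 9 lower. The plot of fold changes for the tested members shows both comparisons.

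**Figure D1:**
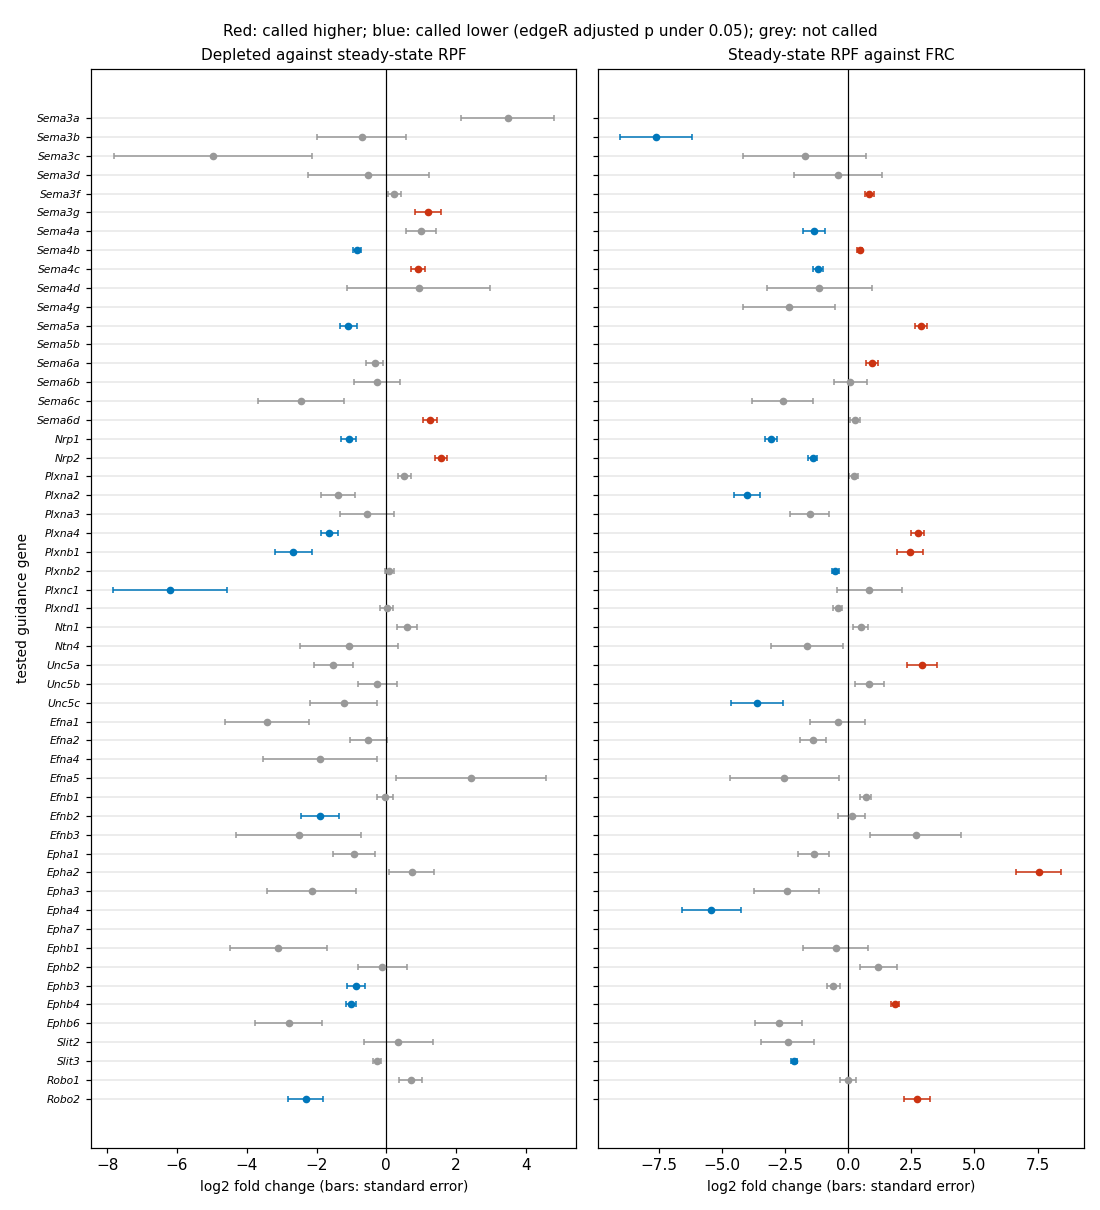
Log2 fold change of the tested guidance genes after toxin (left) and in steady RPF against FRC (right), with bars for the standard error of the edgeR fit. Red points were called higher and blue points lower; genes with 3 counts or fewer in one group are not drawn, which leaves 49 of 53 points on the left and 48 of 53 on the right. Blue outnumbers red on the left, 11 calls to 4, of which the Epha4 call is not drawn.

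Among the secreted class 3 semaphorins, Sema3b was high in lymph node cells and Sema3g, Sema3f and Sema3a were higher in red pulp cells. Sema3b, a neuropilin ligand encoded at chromosome 9, 107597674 to 107609229 (mm10, as are all positions here), stood at 211, 228 and 202 CPM in FRC. It was at 0.0426, 1.28 and 2.05 CPM in RPF steady and at 0.0862, 1.94 and 0 CPM in RPF depleted. All FRC libraries lay far above all spleen libraries, and RPF steady was 195-fold lower than FRC (log2 fold change -7.61, SE 1.43, adjusted p = 0.00439, edgeR). Steady and depleted red pulp cells overlapped for this gene (adjusted p = 0.765, edgeR).

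Sema3g, a class 3 semaphorin known from arterial endothelium (chromosome 14, 31217860 to 31230352), had the reverse pattern. Its values were 0, 0.102 and 0 CPM in FRC, 45.6, 54.1 and 40.8 CPM in RPF steady, and 144, 86.7 and 92.6 CPM in RPF depleted. The groups did not overlap in either comparison. The 6116 counts of RPF steady stood against 3 counts in FRC, or 1527-fold after scaling for depth (95% counting interval 522 to 7407, adjusted p = 6.54e-06, edgeR). The rise after toxin was 2.30-fold (log2 1.20, SE 0.37, adjusted p = 0.0485, edgeR) and rested on every library: the call was lost without any 1 of the 6, and its adjusted p ran from 0.000564 to 0.194 over 15 alternatives. It was also lost with 2 other scalings and with a term for Y-linked reads.

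Sema3a, the collapsing factor of growth cones, was at 0 counts in all FRC libraries. It measured 2.17, 6.46 and 0.0331 CPM in RPF steady and 55.9, 20.6 and 20.5 CPM in RPF depleted. All depleted libraries lay above all steady ones, but the difference did not pass (log2 3.48, SE 1.34, adjusted p = 0.121, edgeR). It passed with DESeq2 and with limma-voom, and its adjusted p ran from 0.0177 to 0.294 over 15 alternatives. Against FRC, RPF steady was at least 92.2-fold higher, taking 3 counts over the FRC group as the floor (adjusted p = 0.0229, edgeR). That call was lost without RPF steady 2 or any 1 FRC library and with limma-voom, with adjusted p from 8.68e-07 to 0.129 over 14 alternatives.

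Sema3f, a ligand that prefers neuropilin-2, stood at 39.7, 47.5 and 32.4 CPM in FRC and 70.1, 84.8 and 58.6 CPM in RPF steady. RPF steady was higher by 0.84 on the log2 scale (SE 0.19, adjusted p = 0.0123, edgeR), without overlap. In RPF depleted it was at 83.5, 80.0 and 87.1 CPM, within reach of the steady libraries (log2 0.23). Sema3c and Sema3d were low, with group means of at most 5.21 CPM and no call.

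Among the membrane-bound semaphorins, Sema5a, a transmembrane protein with thrombospondin repeats (chromosome 15, 32244810 to 32696341), had the highest level of all semaphorins per kb of transcript in RPF steady, by either length used. It measured 72.0, 75.4 and 112 CPM in FRC, 577, 777 and 560.3 CPM in RPF steady, and 347, 338 and 217 CPM in RPF depleted. The 3 groups did not overlap. RPF steady was 7.38-fold above FRC (log2 2.88, SE 0.26, adjusted p = 5.20e-05, edgeR), and the toxin group was 2.12-fold below RPF steady (log2 -1.09, SE 0.24, adjusted p = 0.0123, edgeR). Without RPF steady 2, its highest library, the fall just missed the threshold (adjusted p = 0.0501, within 5.18e-05 to 0.0501 over 15 alternatives, edgeR).

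Sema6d, a transmembrane semaphorin that binds plexin-A1 (chromosome 2, 124089969 to 124667770), was at 41.8, 56.8 and 63.5 CPM in FRC and 71.5, 60.4 and 63.3 CPM in RPF steady, which overlapped. In RPF depleted it was at 188, 121 and 158 CPM, above every other library. The rise after toxin was 2.39-fold (log2 1.26, SE 0.21, adjusted p = 0.0028, edgeR) and held in all 15 alternatives.

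The class 4 genes moved in different directions. Sema4b stood at 127, 130.5 and 119 CPM in FRC, 183, 159.5 and 174 CPM in RPF steady, and 96.3, 98.9 and 94.4 CPM in RPF depleted. These tight groups did not overlap: the fall after toxin was 1.78-fold (log2 -0.83, SE 0.11, adjusted p = 0.000681, edgeR) and held throughout. The smaller difference between RPF steady and FRC (log2 0.46, adjusted p = 0.0125, edgeR) was lost without RPF steady 1 (0.0537, within 5.24e-05 to 0.0537 over the alternatives).

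Sema4c, a ligand of plexin-B2, had the opposite order. It measured 148, 157 and 155 CPM in FRC, 58.9, 62.9 and 79.8 CPM in RPF steady, and 167, 103 and 107 CPM in RPF depleted. RPF steady lay below both other groups, 2.28-fold below FRC (log2 -1.19, SE 0.20, adjusted p = 0.00264, edgeR). The rise after toxin was 1.87-fold (log2 0.90, SE 0.20, adjusted p = 0.0131, edgeR) and was lost without RPF steady 1 (0.0554) or RPF steady 2 (0.0567), the latter the top of its range over alternatives from 0.00114. About 7.27% of its exon sequence overlaps another annotated gene, and no source used here gives the strand setting of the counting.

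Sema4a, which binds plexins and immune receptors, was at 25.0, 34.6 and 25.3 CPM in FRC, 11.6, 17.0 and 4.37 CPM in RPF steady, and 24.5, 22.3 and 19.3 CPM in RPF depleted. RPF steady was below FRC (log2 -1.36, SE 0.44, adjusted p = 0.0486, edgeR), a call kept without RPF steady 2 and lost without each other library, with RLE or upper quartile scaling, without the filter on low counts, with the term for Y-linked reads and with the compared groups alone (adjusted p from 0.0141 to 0.123 over 15 alternatives). Depleted and steady cells did not overlap but missed the threshold (log2 1.00, adjusted p = 0.144, edgeR).

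Sema6a was at 57.0, 57.3 and 72.0 CPM in FRC, 147, 123 and 86.1 CPM in RPF steady, and 115, 68.8 and 99.3 CPM in RPF depleted. RPF steady exceeded FRC (log2 0.93, SE 0.25, adjusted p = 0.0223, edgeR), a call lost without any 1 of FRC 1, FRC 2, RPF steady 1 and RPF steady 2, with adjusted p from 0.00178 to 0.0831. Sema5b, by contrast, was highest in FRC. It had 12.1, 7.61 and 19.7 CPM in FRC, and a single count in RPF steady against 1280 in FRC (depth-scaled ratio 1709, 95% counting interval 306 to 67543, adjusted p = 0.00182, edgeR). Sema6c averaged 19.0 ± 2.99, 3.13 ± 1.41 and 0.575 ± 0.928 CPM (SD, n = 3) in FRC, RPF steady and RPF depleted and passed in neither comparison. Its toxin difference passed with limma-voom and without RPF depleted 2 (adjusted p = 0.00193, within 0.00193 to 0.374 over the alternatives, edgeR), the depleted library with 1.65 CPM where the others had 0.0574 and 0.0223 CPM. Sema4d, Sema4g and Sema6b had group means under 10 CPM and no call.

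**Figure D2:**
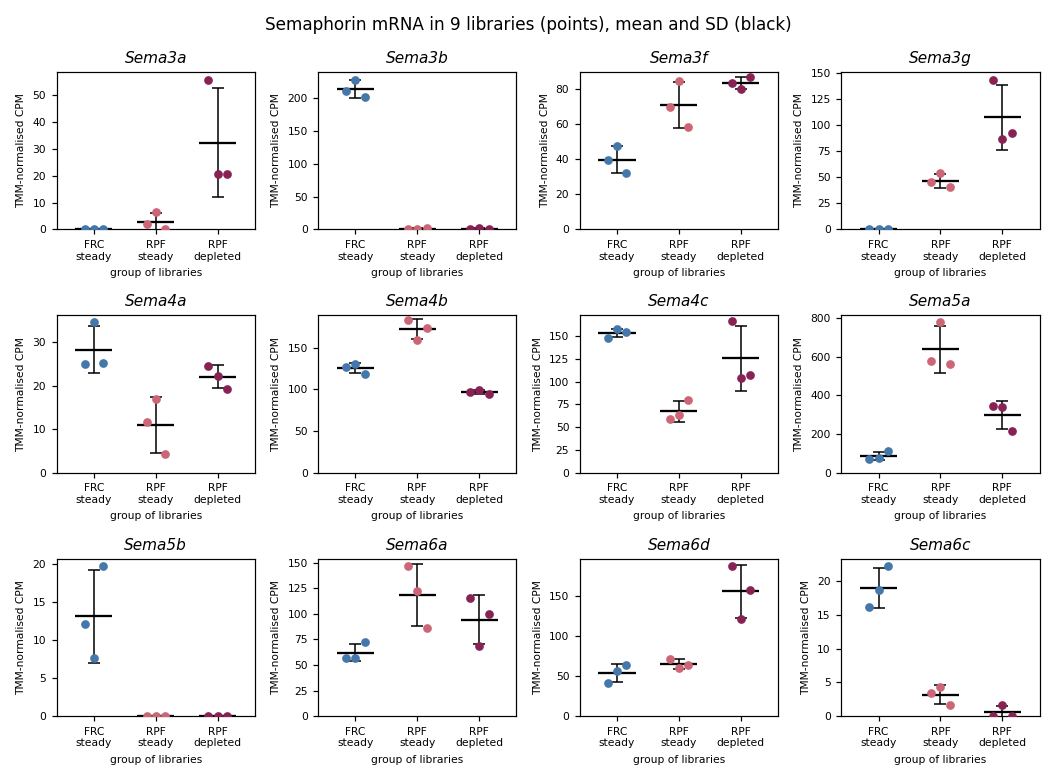
TMM-normalised CPM of 12 semaphorins in the 9 libraries, with black bars for the group mean and SD (n = 3). Sema3b and Sema5b are at or near 0 in both spleen groups, Sema3g and Sema5a are high there, and Sema6d is highest in the 3 depleted libraries.

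The promoters of the members that changed after toxin were searched for motifs of NF-kB, AP-1 and basic helix-loop-helix factors, the family of the red pulp stroma factor Tcf21. The window was the 250 bases before each RefSeq start site (GRCm38.p6, the build mm10), read on both strands, in 71 promoters of 55 members. The NF-kB motif (GGG, 2 free bases, TT, 1 free base, CC) occurred in 4.11% of all 32851 promoters and 4.23% of member promoters. The AP-1 motif TGANTCA occurred in 6.75% and 4.23%, and the E-box CAGCTG, which reads the same on both strands, in 13.0% and 15.5%. None of the motifs overlapped another in the printed windows. The promoters cover all 4 members called higher and 10 of the 11 called lower after toxin. Of these members 4 had a match, and their promoters are shown, 5′ to 3′ on the gene's strand, with the matches in capitals. They are Sema4c (chr1:36558382-36558631, minus strand), with NF-kB and AP-1 matches that begin 186 and 22 bases before the start site, Sema3g (chr14:31217623-31217872, plus strand), Ephb3 (chr16:21204545-21204794, plus strand) and Robo2 (chr16:74411826-74412075, minus strand). The E-boxes of the last 3 begin 210, 137 and 37 bases before the start. Sema4c and Robo2 also have other start sites among the promoters searched, and the windows before those held no match.
Sema4c: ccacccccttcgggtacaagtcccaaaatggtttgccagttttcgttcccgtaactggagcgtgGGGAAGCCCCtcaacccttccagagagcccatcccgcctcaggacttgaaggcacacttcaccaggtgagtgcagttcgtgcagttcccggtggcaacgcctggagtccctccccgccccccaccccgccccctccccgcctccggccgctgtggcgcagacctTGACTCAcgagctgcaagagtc
Sema3g: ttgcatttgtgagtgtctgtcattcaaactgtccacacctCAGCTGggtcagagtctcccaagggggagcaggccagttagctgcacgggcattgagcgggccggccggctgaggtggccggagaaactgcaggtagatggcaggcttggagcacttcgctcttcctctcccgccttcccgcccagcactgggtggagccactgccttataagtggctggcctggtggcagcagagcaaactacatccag
Ephb3: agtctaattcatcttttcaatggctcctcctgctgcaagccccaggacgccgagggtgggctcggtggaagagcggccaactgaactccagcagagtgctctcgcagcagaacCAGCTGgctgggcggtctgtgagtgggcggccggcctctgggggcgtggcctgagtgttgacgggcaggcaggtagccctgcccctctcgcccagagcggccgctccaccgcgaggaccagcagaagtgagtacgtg
Robo2: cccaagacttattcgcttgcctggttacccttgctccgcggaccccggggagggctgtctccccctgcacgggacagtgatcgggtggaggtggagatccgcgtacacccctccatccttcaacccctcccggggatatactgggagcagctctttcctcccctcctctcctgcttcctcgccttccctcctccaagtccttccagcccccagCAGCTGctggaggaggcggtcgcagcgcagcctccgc
Sema4c and Sema3g rose and Ephb3 and Robo2 fell, so the E-box stood before genes that moved either way. Among the 32 members with a promoter that were tested and not called, 2 had the NF-kB motif, 2 the AP-1 motif and 3 the E-box. A match is a run of letters, not a measured binding site.

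The neuropilins, the co-receptors of class 3 semaphorins, moved in opposite directions after toxin. Nrp1 (chromosome 8, 128358604 to 128503363) stood at 1186, 1085 and 1282 CPM in FRC, 153, 123 and 149 CPM in RPF steady, and 49.2, 91.2 and 60.3 CPM in RPF depleted. The groups did not overlap, with lymph node cells far above both spleen groups. RPF steady was 8.36-fold below FRC (log2 -3.06, SE 0.23, adjusted p = 1.79e-05, edgeR) and RPF depleted a further 2.12-fold below RPF steady (log2 -1.08, SE 0.21, adjusted p = 0.00698, edgeR).

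Nrp2 (chromosome 1, 62703285 to 62818695) was at 129, 146 and 141 CPM in FRC, 57.8, 51.0 and 48.8 CPM in RPF steady, and 116, 181 and 169 CPM in RPF depleted. Steady red pulp cells lay below both other groups without overlap. The rise after toxin was 2.96-fold (log2 1.57, SE 0.18, adjusted p = 0.000382, edgeR) and the deficit against FRC 2.65-fold (log2 -1.40, SE 0.18, adjusted p = 0.000408, edgeR). All 4 neuropilin calls held in every alternative. Per kb of the median transcript length, Nrp1 exceeded Nrp2 in RPF steady (43.9 against 8.26 CPM per kb) and the order was the other way in RPF depleted (20.7 against 24.5 CPM per kb). With union exon lengths the levels were 14.5 and 4.44 CPM per kb in RPF steady and 6.84 and 13.1 CPM per kb in RPF depleted, in the same orders.

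Nrp1 is also a gene of endothelium. Endothelial markers summed to 102 to 219 CPM in RPF steady, 69.0 to 88.9 CPM in RPF depleted and 76.7 to 132 CPM in FRC, over 16 genes of which 1 was called lower after toxin and 2 were called higher in RPF steady than in FRC. Tek averaged 33.7, 90.9 and 17.2 CPM in FRC, RPF steady and RPF depleted. In the same order, Esam averaged 5.02, 9.36 and 20.0 CPM and Pecam1 6.69, 3.87 and 0.956 CPM. Lyve1 was at 0 counts in both RPF groups, Kdr and Erg at 0 in FRC and Emcn at 0 in RPF depleted. Summed lymphocyte markers averaged 123, 158 and 31.2 CPM in FRC, RPF steady and RPF depleted, and monocyte and neutrophil markers 171, 491 and 563 CPM. In the same order, erythroid markers averaged 53.7, 443 and 531 CPM and platelet and megakaryocyte markers 12.1, 23.9 and 44.6 CPM. The part of endothelial, macrophage, mural and these other blood cells in any difference described here was not tested.

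Plexins transmit the semaphorin signal, and class A plexins do so for class 3 semaphorins bound to neuropilins. Plxna4 (chromosome 6, 32144268 to 32588192) measured 37.1, 31.2 and 35.1 CPM in FRC, 187, 316 and 193 CPM in RPF steady, and 88.9, 76.5 and 58.0 CPM in RPF depleted. Its groups were separate, 6.72-fold higher in RPF steady than FRC (log2 2.75, SE 0.25, adjusted p = 5.87e-05, edgeR) and 3.11-fold lower after toxin (log2 -1.64, SE 0.24, adjusted p = 0.00143, edgeR). Both calls held in every alternative.

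Plxna2, another class A plexin, was highest in FRC, at 79.3, 68.1 and 95.1 CPM in FRC and 6.54, 6.38 and 2.22 CPM in RPF steady. RPF steady was 16.0-fold lower (log2 -4.0, SE 0.51, adjusted p = 0.000498, edgeR). After toxin it stood at 1.58, 3.10 and 1.14 CPM, which overlapped the steady libraries and missed the threshold (log2 -1.38, adjusted p = 0.0728, edgeR), but passed without RPF steady 3 (0.0238) or RPF depleted 2 (0.0363) and with DESeq2, within 0.0150 to 0.207 over the alternatives.

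Plxna1, the partner of Sema6d, was the most abundant semaphorin receptor of RPF depleted per kb by both lengths. It measured 175, 256 and 306 CPM in FRC, 258, 283 and 310.2 CPM in RPF steady, and 373, 432 and 409 CPM in RPF depleted. All depleted libraries lay above the others, but the difference from RPF steady did not pass (log2 0.51, SE 0.19, adjusted p = 0.0915, edgeR), though it did with limma-voom and with the compared groups alone (0.0150 to 0.239 over the alternatives). It overlaps other genes over 10.7% of its exon sequence.

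The class B plexins are receptors of class 4 semaphorins. Plxnb1 (chromosome 9, 109095389 to 109119917) measured 12.4, 7.95 and 2.71 CPM in FRC, 42.0, 37.8 and 46.0 CPM in RPF steady, and 6.58, 4.05 and 9.13 CPM in RPF depleted. RPF steady alone was high, 5.45-fold above FRC (log2 2.45, SE 0.53, adjusted p = 0.00914, edgeR) and 6.37-fold above RPF depleted (log2 -2.67 after toxin, SE 0.54, adjusted p = 0.00762, edgeR). Plxnb2, the receptor of Sema4c, had 396, 318 and 404 CPM in FRC, 245, 269 and 271 CPM in RPF steady, and 251, 279 and 304 CPM in RPF depleted. RPF steady was 1.42-fold below FRC (log2 -0.51, SE 0.13, adjusted p = 0.0176, edgeR), a call lost without each library except FRC 2, with upper quartile scaling and with the compared groups alone (0.00309 to 0.0882 over the alternatives). The toxin groups overlapped (log2 0.09, adjusted p = 0.704, edgeR).

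Plxnc1, a receptor of Sema7a on leukocytes and other cells, had 21.8, 3.11 and 5.61 CPM in FRC and 14.3, 17.4 and 22.6 CPM in RPF steady. RPF depleted had 0.747 CPM in 1 library and 0 in the others. The fall (log2 -6.20, SE 1.64, adjusted p = 0.0265, edgeR) was kept without RPF depleted 1 and lost without each other library, with adjusted p from 2.19e-05 to 0.0702. Its ligand Sema7a had at most 0.0142 CPM in any group. Plxnd1, a plexin of developing vessels, averaged 88.8, 66.1 and 66.5 CPM in FRC, RPF steady and RPF depleted, with overlap in both comparisons, and Plxna3 had group means of at most 19.2 CPM and no call. The Plxna3 tissue difference passed with limma-voom.

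**Figure D3:**
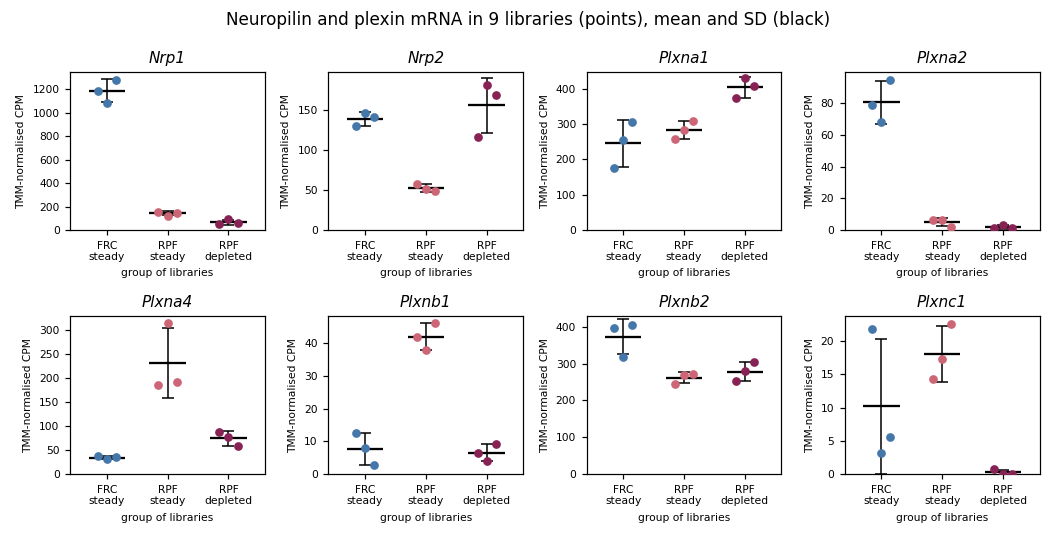
TMM-normalised CPM of both neuropilins and 6 plexins in the 9 libraries, with black bars for the group mean and SD (n = 3). Plxnb1 and Plxna4 are highest in RPF steady, and Nrp2 is lowest there.

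Efnb1 was the most abundant ephrin per kb in every group, by both lengths. It encodes a transmembrane ephrin, and stood at 36.8, 46.6 and 66.3 CPM in FRC, 88.4, 71.8 and 80.6 CPM in RPF steady, and 80.8, 65.6 and 87.7 CPM in RPF depleted. RPF steady lay above FRC without overlap but missed the threshold (log2 0.69, SE 0.23, adjusted p = 0.0544, edgeR) and passed without FRC 3 (0.0120), with RLE or upper quartile scaling, DESeq2 and limma-voom, within 0.0120 to 0.151 over the alternatives. The toxin groups overlapped (log2 -0.04, adjusted p = 0.934, edgeR).

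Efnb2, the arterial partner of Ephb4, was low: 6.16, 8.50 and 3.73 CPM in FRC, 5.53, 7.36 and 7.21 CPM in RPF steady, and 2.01, 2.00 and 1.36 CPM in RPF depleted. The depleted libraries lay below all others. The fall was 3.74-fold (log2 -1.90, SE 0.55, adjusted p = 0.0377, edgeR) and was lost without any 1 of the 6 libraries, without the filter on low counts and with the term for Y-linked reads, with adjusted p from 0.00048 to 0.119. Efna4 had 0 counts in FRC and a mean of 2.00 CPM in RPF steady, at least 63.9-fold higher (adjusted p = 0.0304, edgeR). The call was lost without any 1 library and with the term for Y-linked reads (0.00076 to 0.0792 over the alternatives). About 10.5% of the Efna4 exon sequence overlaps other annotated genes. Efna1, Efna2, Efna5 and Efnb3 had group means of at most 9.87 CPM and no call. The Efna2 tissue difference passed with DESeq2 and with limma-voom, and the Efna1 toxin difference with DESeq2.

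Among Eph receptors, Ephb4 (chromosome 5, 137350109 to 137378669), the receptor of ephrin-B2 and a venous marker, varied little within groups. It measured 64.3, 65.3 and 58.2 CPM in FRC, 219, 232 and 228 CPM in RPF steady, and 91.9, 118 and 129 CPM in RPF depleted. It was 3.61-fold higher in RPF steady than FRC (log2 1.85, SE 0.14, adjusted p = 2.20e-05, edgeR) and 2.00-fold lower after toxin (log2 -1.0, SE 0.14, adjusted p = 0.00117, edgeR). Both calls held in every alternative, and depleted cells stayed above FRC in all libraries.

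Ephb3, whose promoter is shown above, measured 58.5, 56.7 and 72.8 CPM in FRC, 31.2, 42.5 and 50.6 CPM in RPF steady, and 18.2, 20.1 and 30.1 CPM in RPF depleted. Its fall after toxin was 1.82-fold (log2 -0.86, SE 0.26, adjusted p = 0.0451, edgeR) and was lost without RPF steady 2, RPF steady 3, RPF depleted 1 or RPF depleted 2 and with the compared groups alone, with adjusted p from 0.00825 to 0.155. The difference from FRC did not pass (log2 -0.60, adjusted p = 0.129, edgeR).

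Epha2 (chromosome 4, 141301240 to 141329384), an Eph receptor widely found in epithelia, was at 0, 0.478 and 0.0895 CPM in FRC, 23.6, 27.9 and 52.1 CPM in RPF steady, and 47.8, 81.5 and 41.9 CPM in RPF depleted. It was 186-fold higher in RPF steady than FRC (log2 7.54, SE 0.91, adjusted p = 0.000329, edgeR), and the toxin groups overlapped (log2 0.72, adjusted p = 0.494, edgeR). Epithelial markers had summed levels of 18.2 to 22.8 CPM in FRC, 0 to 1.11 CPM in RPF steady and 0 to 0.0287 CPM in RPF depleted, and their part in the Epha2 values was not tested.

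Epha3, Epha4, Epha7 and Ephb6 had their highest means in FRC, though only Epha4 and Epha7 passed between tissues. Epha4 had 38.4, 16.0 and 19.7 CPM in FRC and 0.915, 0.0197 and 0.794 CPM in RPF steady, 42.9-fold lower (log2 -5.42, SE 1.17, adjusted p = 0.00882, edgeR). After toxin 1 count remained against 68 in RPF steady, or 62.1-fold fewer after scaling for depth (95% counting interval 10.8 to 2487, adjusted p = 0.026, edgeR). The libraries of that comparison overlapped, and the call was kept without RPF steady 2 and lost without each other library, with limma-voom and with the term for Y-linked reads (0.000723 to 0.239 over 14 alternatives). Epha7 had 6.89, 21.8 and 8.59 CPM in FRC and 0 counts in RPF steady, at least 529-fold lower (adjusted p = 0.0206, edgeR), a call lost without FRC 2 or any 1 RPF steady library (8.39e-07 to 0.0552). Neural and glial markers, whose cells carry Eph receptors, summed to 26.1 to 38.2 CPM in FRC and 3.17 to 4.43 CPM in RPF steady. Most of the FRC sum (mean 32.9 CPM) was Ngfr, which averaged 26.1 CPM in FRC and 3.05 CPM in RPF steady. Sox10 had 22 counts in FRC and 0 in RPF steady. Of 4 such markers tested, 1 was called lower in RPF steady and 0 higher. The part of neural and glial cells in these FRC values was not tested.

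Epha3 measured 130.0, 232 and 160.1 CPM in FRC, 30.4, 22.5 and 43.1 CPM in RPF steady, and 0.144, 21.0 and 0.536 CPM in RPF depleted. The groups were in order without overlap, but RPF depleted 2 stood close to the steady level. With it the toxin difference did not pass (log2 -2.14, SE 1.27, adjusted p = 0.287, edgeR), and without it the adjusted p was 0.000519; it also passed with limma-voom, within 0.000519 to 0.464 over the alternatives. The tissue differences of Epha3, Ephb6 and Sema6c passed with limma-voom and with the compared groups alone, and that of Ephb6 also with the filter of 1 CPM. Ephb6, an Eph receptor without kinase activity and the most abundant Eph of FRC per kb, measured 92.2, 93.1 and 155 CPM in FRC, 13.2, 17.1 and 20.2 CPM in RPF steady, and 3.48, 3.78 and 0.0223 CPM in RPF depleted. It passed in neither comparison (adjusted p = 0.0593 for tissue and 0.0705 for toxin, edgeR), and its toxin difference passed without RPF depleted 3 (0.00319) and with DESeq2 and limma-voom, within 0.00319 to 0.185. Epha1, Ephb1 and Ephb2 had group means of at most 38.6 CPM and no call; the Ephb1 toxin difference passed with DESeq2, with limma-voom and without RPF depleted 2 (adjusted p = 0.0237, within 0.0237 to 0.327 over the alternatives, edgeR). The Epha1 tissue difference passed with limma-voom and with the compared groups alone.

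The summed Eph receptor level was 435 to 521 CPM in FRC, 373 to 454 CPM in RPF steady and 199 to 274 CPM in RPF depleted. The depleted sum lay below the others in every library. The first place among Eph receptors per kb passed from Ephb6 in FRC to Ephb4 in RPF steady by both lengths. In RPF depleted it was Epha2 by the median transcript length and Ephb4 by the union exon length.

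**Figure D4:**
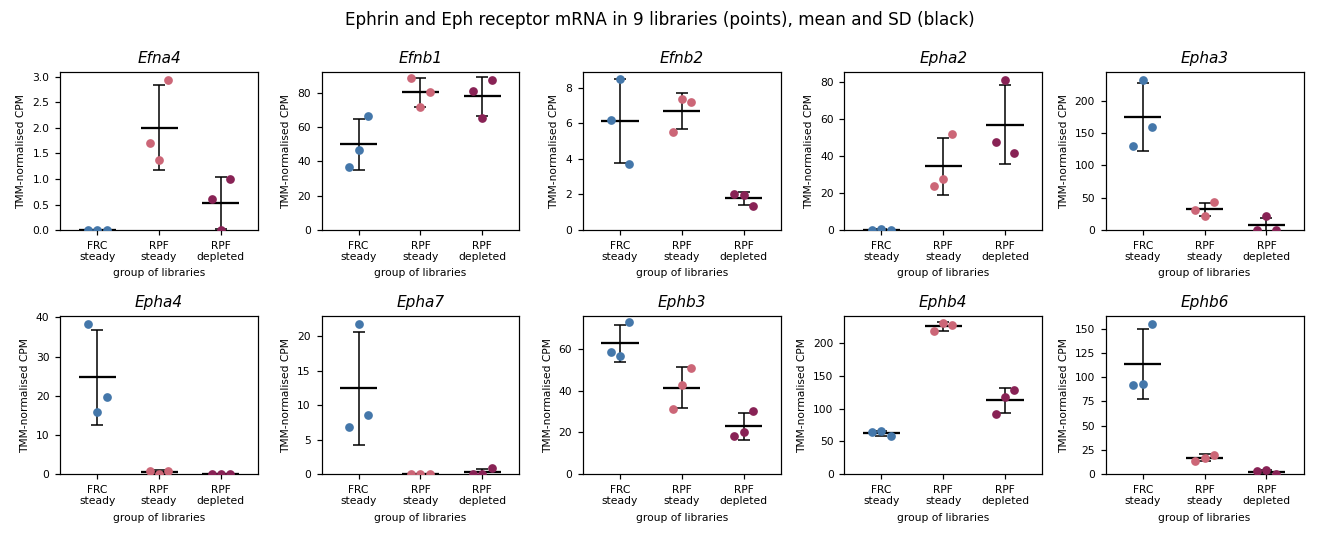
TMM-normalised CPM of 3 ephrins and 7 Eph receptors in the 9 libraries, with black bars for the group mean and SD (n = 3). Ephb4 is highest in RPF steady and Epha2 is near 0 in FRC, while Epha3, Epha4, Epha7 and Ephb6 are highest in FRC.

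Slit3 (chromosome 11, 35121224 to 35708507) carried most Slit mRNA. It measured 934, 935 and 942 CPM in FRC, 187, 217 and 236 CPM in RPF steady, and 179, 159 and 193 CPM in RPF depleted. RPF steady was 4.39-fold below FRC (log2 -2.13, SE 0.12, adjusted p = 4.5e-06, edgeR), and the toxin groups overlapped (log2 -0.27, SE 0.12, adjusted p = 0.149, edgeR). Slit2, the other Slit tested, averaged 15.3 ± 7.23, 2.89 ± 1.80 and 3.66 ± 3.02 CPM (SD, n = 3) in FRC, RPF steady and RPF depleted, with no call. Its tissue difference (adjusted p = 0.127, edgeR) passed with DESeq2 and with the compared groups alone, within 0.0325 to 0.282 over the alternatives.

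Robo2, the receptor of Slits with the highest mean level per kb in all groups, ran the other way across tissues (chromosome 16, 73891839 to 74411825). It measured 31.7, 23.7 and 9.78 CPM in FRC, 129, 145 and 156 CPM in RPF steady, and 37.0, 37.9 and 12.1 CPM in RPF depleted. RPF steady alone was high, 6.60-fold above FRC (log2 2.72, SE 0.51, adjusted p = 0.00444, edgeR), and the fall after toxin was 4.94-fold (log2 -2.31, SE 0.50, adjusted p = 0.0116, edgeR). Both calls held in every alternative. Robo1 stood at 11.1, 10.9 and 10.2 CPM in FRC, 11.8, 8.83 and 11.3 CPM in RPF steady, and 18.9, 11.3 and 21.6 CPM in RPF depleted, with overlap in both comparisons. By the median length, Robo2 and Robo1 were nearly level in RPF depleted (7.60 and 7.41 CPM per kb). In FRC 3 and RPF depleted 3, Robo1 exceeded Robo2. Robo4, the endothelial Robo, had 151 counts in FRC, all in FRC 1, 0 in RPF steady and 8 in RPF depleted.

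Netrins were low. Ntn1, a secreted netrin, measured 8.10, 14.3 and 9.36 CPM in FRC, 14.1, 17.8 and 13.0 CPM in RPF steady, and 20.9, 25.5 and 21.5 CPM in RPF depleted, all above the steady libraries but not past the threshold (log2 0.59, SE 0.30, adjusted p = 0.207, edgeR). Ntn4, a basement membrane netrin and the first netrin of FRC per kb, averaged 11.6 ± 10.2, 3.71 ± 2.24 and 1.76 ± 1.70 CPM (SD, n = 3) and had no call.

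Among the netrin receptors of the Unc5 family, Unc5a (chromosome 13, 54949411 to 55006018) and Unc5c changed places between tissues. Unc5a was at 4.61, 2.87 and 15.2 CPM in FRC, 42.5, 65.0 and 67.0 CPM in RPF steady, and 16.4, 16.7 and 27.5 CPM in RPF depleted. RPF steady was 7.68-fold above FRC (log2 2.94, SE 0.59, adjusted p = 0.00633, edgeR), and the depleted libraries lay below it without passing (log2 -1.52, SE 0.56, adjusted p = 0.092, edgeR); they passed with DESeq2, limma-voom and the compared groups alone (0.00706 to 0.230 over the alternatives). Unc5c was at 50.0, 34.5 and 42.5 CPM in FRC, 5.64, 1.95 and 2.61 CPM in RPF steady, and 3.65, 0.0810 and 0.669 CPM in RPF depleted. Its 12.4-fold deficit in RPF steady (log2 -3.63, SE 1.03, adjusted p = 0.0305, edgeR) was lost without any 1 library (0.000398 to 0.104 over the alternatives), and its toxin difference, which did not pass, did so without RPF depleted 1 (0.0404, within 0.0404 to 0.772). Unc5b had group means of at most 7.89 CPM and no call.

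**Figure D5:**
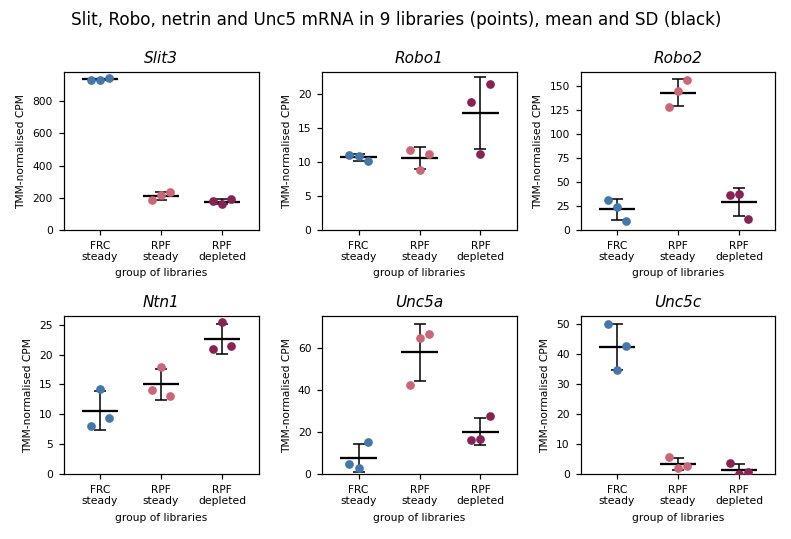
TMM-normalised CPM of Slit3, 2 Robo receptors, Ntn1 and 2 Unc5 receptors in the 9 libraries, with black bars for the group mean and SD (n = 3). Robo2 and Unc5a are highest in RPF steady, and Slit3 and Unc5c in FRC.

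Comparing genes within a family and role needs levels per kb, and the 2 lengths gave the same first gene in 20 of 24 combinations of family, role and group. The top semaphorin was Sema3b in FRC (231 CPM per kb of median transcript length, 44.7 per kb of union exons) and Sema5a in RPF steady (202 and 34.2). In RPF depleted it was Sema3f by the median length (103), followed closely by Sema5a (95.2) and then Sema4c (57.4). By the union length it was Sema4c (27.4), followed by Sema3g (23.7), with Sema3f at 16.1. The top semaphorin receptor was Plxnb2 or Nrp1 in FRC (449 for Plxnb2 by median length, 121 for Nrp1 by union length), Plxna1 or Plxnb2 in RPF steady, and Plxna1 in RPF depleted (573 and 44.7). For 20 of the 63 members the union length exceeds the median transcript length more than 5 times, so only orders that both lengths share are stated as orders.

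Other genes of these pathways were read from a list of co-receptors, alternative receptors and matrix partners and from a list of intracellular effectors. Of 17 partners tested, 2 were higher and 4 lower after toxin, or 35.3% against 21% of all genes, with a median log2 fold change of -0.81 against -0.09 for all genes. Itgb1, the integrin chain that binds Sema7a, rose from 1330 ± 125 to 2542 ± 97.0 CPM (adjusted p = 0.000566, edgeR). Neo1, which encodes the netrin receptor neogenin, fell from 56.1 ± 7.13 to 16.9 ± 7.94 CPM (adjusted p = 0.013, edgeR). Gpc1, a heparan sulphate proteoglycan that binds Slits, fell from 364 ± 64.0 to 99.7 ± 22.5 CPM (adjusted p = 0.000485, edgeR). Dag1, which encodes dystroglycan, another Slit partner, fell 2.11-fold (adjusted p = 0.00454, edgeR). Flrt2, an Unc5 ligand, had 4 counts in all of RPF steady and 0, 2.46 and 2.63 CPM in RPF depleted, which overlapped although the difference was called (adjusted p = 0.0425, edgeR).

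Between tissues 3 of the 17 partners were higher and 5 lower in RPF steady, or 47.1% against 25.9% of all genes, with a median of -0.28 against -0.02. Gpc1 was 15.4-fold and Itga1, an integrin chain, 7.10-fold higher (adjusted p = 6.04e-06 and 5.7e-05, edgeR). Flrt3, another Unc5 and Robo partner, averaged 65.4 CPM in FRC and 0.0247 CPM in RPF steady (adjusted p = 4.5e-06, edgeR), and Chl1, an adhesion partner of neuropilin-1, 23.2 and 0.0203 CPM (adjusted p = 0.000136, edgeR). Cd72, a lymphocyte receptor of Sema4d, averaged 66.4 and 15.7 CPM (adjusted p = 0.00227, edgeR). Other annotated genes overlap 41.6% of the exon sequence of Cd72 and 18.9% of that of Gpc1.

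Of 54 effectors tested, 3 were higher and 4 lower after toxin, or 13.0% against 21% of all genes (median -0.01 against -0.09). Dpysl3, a collapsin response mediator, rose 2.49-fold and Vasp, an actin regulator, 2.39-fold (adjusted p = 0.00465 and 0.016, edgeR). Adam10, a protease that cleaves ephrins, fell 1.78-fold and Evl, an actin regulator, 2.83-fold (adjusted p = 0.00704 and 0.0195, edgeR).

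Between tissues 14 effectors were higher and 8 lower in RPF steady, or 40.7% against 25.9% of all genes (median -0.05 against -0.02). Nck2, an adaptor of Eph receptors, was 6.21-fold, Kalrn, a GTPase exchange factor, 6.00-fold and Mras, a Ras-family GTPase, 3.84-fold higher (adjusted p = 1.84e-05, 0.0002 and 0.000299, edgeR). Fyn, a kinase downstream of plexins and Eph receptors, was 6.27-fold and Dpysl3 3.74-fold lower (adjusted p = 9.3e-05 and 0.000487, edgeR), and Ngef, the exchange factor of Epha4, averaged 15.0 CPM in FRC and 0.00658 CPM in RPF steady (adjusted p = 0.000351, edgeR).

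For members with a mean of at least 10 CPM, the median coefficient of variation over 3 libraries was 19.0% in FRC, 16.7% in RPF steady and 22.2% in RPF depleted, against 21.6%, 16.8% and 16.1% for all genes at that level. For members between 1 and 10 CPM it was 81.0%, 59.0% and 68.4%, against 62.6%, 44.2% and 47.7% for all genes between these levels.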

How the data were processed

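Stromal RNA was sequenced in 9 libraries, 3 per group, each from pooled cells of 2 mice. The authors deposited raw read counts per gene, whole numbers that are not normalized. Per the submitters' processing notes, the tools were HTSeq 0.6.1p1, STAR 2.5.3a, Bowtie2 2.2.8 and cutadapt 1.10 on build mm10; no source used here names the strand setting or the annotation. The table has 24 further per-sample columns, not used here. Counts were fitted with edgeR 4.0.16 (R 4.3.3; filterByExpr, TMM, robust quasi-likelihood, 1 term per group, 6 residual degrees of freedom) in 1 fit of all libraries, and adjusted by Benjamini-Hochberg over 15103 genes, threshold 0.05, two-sided. Genes at 0 counts in a group were compared with a floor of 3 counts over the group; intervals are 95% counting intervals and cover counting error only. Levels between genes used the deposited median transcript length or GENCODE vM21 union exons. Named members were those called in either comparison, with every library given from about 10 CPM, and from each pathway list the 3 genes with the smallest p per direction, of which some are not reported here. The script was tested on simulated counts. Members and lists were chosen with earlier results of these data known. Alternatives used DESeq2 1.42.0, limma 3.58.1, other scalings and filters, a term for Y-linked reads, the compared groups alone, and each library left out.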

Additional observations from a re-analysis of the deposited data

How the results depend on the processing

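No paired analysis was possible because the labels do not say which lymph node and spleen libraries share mice, so the tissue p-values treat libraries as independent. Without 1 library in turn, members called higher after toxin numbered 2 to 3 (4 with all libraries) and those called lower 7 to 11 (11); in RPF steady against FRC they numbered 10 to 12 higher (13) and 8 to 9 lower (12). Over the other 9 alternatives these counts ran from 3 to 6, 9 to 16, 12 to 14 and 10 to 18. No call changed sign in any alternative. Effectors called lower after toxin numbered 2 without the filter on low counts, against 4. Upper quartile scaling moved the median log2 fold change of all genes between tissues from -0.02 to 0.14 and turned their calls from 1734 higher and 2174 lower to 2158 and 1821. After toxin the calls turned from 1671 higher and 1505 lower to 1564 and 1592 with RLE and 1463 and 1688 with upper quartile scaling. Union exon length in place of the median transcript length, chosen after seeing the data, kept 20 of 24 first places. DESeq2 gave no adjusted p for Sema3b and Sema3c. Each fit without a library rests on the spread shared by all groups. Wide spread between libraries limits what can be said of members under 10 CPM. Between 1 and 10 CPM, their median coefficient of variation was 81.0% in FRC, 59.0% in RPF steady and 68.4% in RPF depleted.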
